A study of Homo sapiens with 6 samples.

Results

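The genes described here encode the DNA polymerases and accessory factors of the replication fork. The set was a fixed list of 34 symbols, and all 34 were found among the 61859 Ensembl genes of the count table and passed the filter on low counts. RNA was sequenced from IOMM-Lee, an established cell line labelled as malignant (grade 3) meningioma. Meningiomas grow from the coverings of the brain and spinal cord. The 3 control libraries came from cells kept for 48 h in normoxia. The 3 test libraries came from cells held for 48 h at 0.2% oxygen in a hypoxia workstation. All cells grew in serum-containing medium at 37 °C with 5% CO2, and the labels call the 3 libraries of each condition biological replicates. The line is a single established culture, so the spread between replicates does not cover differences between tumours.

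At a replication fork, DNA polymerase alpha and its primase lay down short primers, polymerase epsilon extends the leading strand and polymerase delta the lagging strand. The ring-shaped clamp PCNA, loaded by the RFC complex, holds the polymerases on DNA, RPA coats single strands, and FEN1, DNA2 and LIG1 trim and join Okazaki fragments. GINS belongs to the replicative helicase, and the CAF-1 complex and ASF1B place histones on the new DNA. Most of these genes are known as targets of E2F transcription factors and are transcribed mainly as cells enter S phase.

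Total counts per library lay between 10619864 and 19554178. The oxygen-responsive genes chosen to check the labels, 8 in number, all rose, and their summed level went from between 416 and 514 to between 14133 and 16293 CPM, which are counts scaled to library totals adjusted for composition by TMM factors. Hypoxia replicate 3 stood apart from the other hypoxia libraries on the second principal component, at 47.7 against -27.2 and -20.1. Of 8 meningioma and arachnoid markers, VIM, DSP and CLU were well expressed and MUC1 and CRABP2 were low in normoxia. SSTR2, PTGDS and PGR had mean levels under 1 CPM. These markers shifted with the condition. CRABP2 rose 58.1-fold, MUC1 4.27-fold, DSP 3.01-fold, CLU 2.72-fold and VIM 2.01-fold, and SSTR2 fell 2.96-fold. All 6 leukocyte and all 5 keratinocyte and epithelial markers had means over the 6 libraries under 1 CPM, and the summed leukocyte level did not exceed 1.12 CPM in any library. Of 8 neural and glial markers 3 had means under 1 CPM, and their summed level was 19.1 to 24.4 CPM in normoxia and 15.2 to 17.9 CPM in hypoxia, with RBFOX3 highest. In that list OLIG2 (1.80-fold) and MBP (4.94-fold) fell and SYP rose 2.63-fold. Of 5 endothelial markers 3 had means under 1 CPM, the summed level was 3.51 to 4.26 and 1.69 to 5.18 CPM, and KDR fell 2.26-fold. The part of these markers in the fork gene values was not tested.

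Nearly every fork gene was lower in hypoxia. Of the 34 genes, 31 fell and 2 rose (edgeR quasi-likelihood test, Benjamini-Hochberg adjusted p under 0.05 over all genes). Among all 16411 tested genes, 62.2% were called in either direction, 31.0% lower and 31.2% higher. Scaling by library totals alone moved the median log2 change of all genes from 0.01 to -0.30 and the calls to 42.1% lower and 20.8% higher. The flap endonuclease gene FEN1 fell most, 8.58-fold, and the clamp gene PCNA fell 5.16-fold. The exceptions were the accessory subunits POLD4 and POLE4, which rose 1.79-fold and 1.62-fold, and the large clamp loader subunit RFC1, at a log2 change of -0.07 ± 0.10 (SE; adjusted p = 0.599).

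The size of the fall varied widely within the set. In 11 genes it was at least 4-fold, against 5.72% of all tested genes, and in 24 at least 2-fold, against 17.7%. The other 7 falls were under 2-fold, the smallest in RFC5 at 1.45-fold. The median log2 change was -1.45, and over all tested genes it was 0.01. In 33 of the 34 genes all libraries of a condition lay on the same side of the other condition, as in 67.9% of all tested genes, and RFC1 was the exception. In 17 of the genes that fell, the highest hypoxia library was below 50% of the lowest normoxia library, against 10.6% of all tested genes. The members were listed with earlier results of these libraries known, so these counts describe the set and are not independent evidence of its direction.

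**Figure D1:**
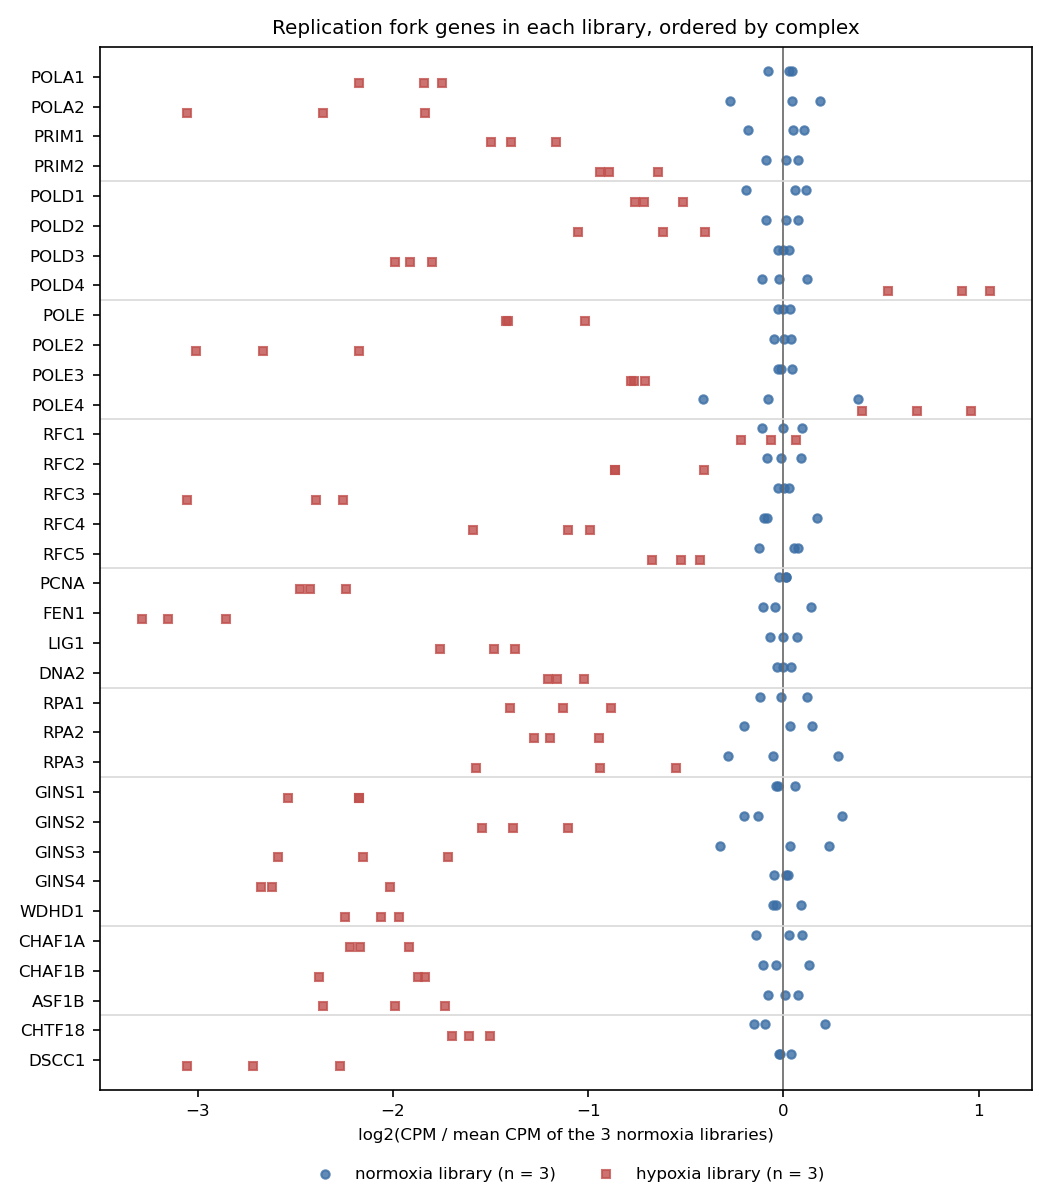
Level of each gene in each library, as log2 of CPM over the mean of the 3 normoxia libraries, with circles for normoxia and squares for hypoxia and lines between complexes. The hypoxia squares lie left of the normoxia circles for 31 genes, right of them for POLD4 and POLE4, and overlap them for RFC1.

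The 3 hypoxia libraries moved alike. Relative to the normoxia mean, the median member stood at -1.49, -1.39 and -1.56 on the log2 scale in hypoxia replicates 1, 2 and 3, while the median of all tested genes lay between -0.01 and 0.02. Without hypoxia replicate 3, the library that stood apart, 31 of the 34 genes were again called lower. The summed level of the 34 genes was 1182 ± 44.0 CPM in normoxia and 607 ± 22.5 CPM in hypoxia (SD, n = 3 each). As a share of all counts, the set took 0.131% in each normoxia library and 0.0526%, 0.0580% and 0.0525% in the hypoxia libraries. The share of counts from mitochondrial genes moved with the groups too, from between 6.42% and 7.29% in normoxia to between 2.05% and 3.05% in hypoxia, and its part in the fork gene values was not tested. These are bulk RNA values, so a smaller share of cells in S phase and less RNA per cell cannot be told apart.

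Promoter sequence was examined as a description of the members, without a test. RefSeq promoters on GRCh38.p14, 250 bases before to 50 after the start, were found for 28 members (those of POLD3, DNA2, RPA2, RPA3, GINS4 and DSCC1 were not matched). The E2F letters TTTGGCGC or TTTCGCGC, on either strand, occurred in 5 of the 28, those of POLA1, POLA2, POLE, POLE2 and GINS1. They occurred in 1.15% of all 35116 RefSeq promoters and in 2.48% of the 10995 tested genes with a promoter. All 5 members were among the 19 with a promoter that fell at least 2-fold. Of the 273 tested genes that hold either run of letters, members included, 136 (49.8%) fell, against 31.0% of all 16411 tested genes. The share that fell among all tested genes with a promoter was not computed. The shorter letters TTCCCGC, added after the promoters had been seen, occurred in 14 of the 28 members, in 6.55% of all promoters and in 12.5% of the tested genes with a promoter. They were in 11 of the 19 members that fell at least 2-fold and in 3 of the 9 others, which were POLE3, RFC2 and POLE4. Of the 1372 tested genes with the shorter letters, 530 (38.6%) fell.

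The 150 bases before the RefSeq start are printed for 7 members, 5′ to 3′ in the direction of the gene. E2F letters of either kind are in capitals on whichever strand they lie. By the GENCODE gene coordinates, the windows of POLA2, FEN1 and POLE4 lie inside the gene, after its GENCODE start. Those of POLE, PCNA and RFC1 overlap the gene in part. POLA1 (chrX:24693768-24693917, plus strand), POLA2 (chr11:65261812-65261961, plus) and POLE (chr12:132687343-132687492, minus) show the longer letters. PCNA (chr20:5126623-5126772, minus) shows the shorter ones, and FEN1 (chr11:61792761-61792910, plus) is given as the largest fall. RFC1 (chr4:39366363-39366512, minus) and POLE4 (chr2:74958493-74958642, plus) are given for contrast.
POLA1: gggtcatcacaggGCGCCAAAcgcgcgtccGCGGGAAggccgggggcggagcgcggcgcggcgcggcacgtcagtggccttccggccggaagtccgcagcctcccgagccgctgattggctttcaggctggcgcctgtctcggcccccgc
POLA2: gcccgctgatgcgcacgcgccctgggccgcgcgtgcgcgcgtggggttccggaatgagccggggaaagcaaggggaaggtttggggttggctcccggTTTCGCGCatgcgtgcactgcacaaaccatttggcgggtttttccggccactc
POLE: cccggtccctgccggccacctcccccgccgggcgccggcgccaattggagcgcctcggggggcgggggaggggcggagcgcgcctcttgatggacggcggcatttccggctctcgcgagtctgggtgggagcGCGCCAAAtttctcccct
PCNA: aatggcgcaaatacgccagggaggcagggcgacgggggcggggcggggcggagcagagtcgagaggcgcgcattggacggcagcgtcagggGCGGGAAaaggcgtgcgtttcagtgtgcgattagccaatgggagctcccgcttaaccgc
FEN1: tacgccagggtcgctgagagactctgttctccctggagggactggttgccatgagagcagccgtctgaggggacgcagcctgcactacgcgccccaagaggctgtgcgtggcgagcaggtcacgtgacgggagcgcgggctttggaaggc
RFC1: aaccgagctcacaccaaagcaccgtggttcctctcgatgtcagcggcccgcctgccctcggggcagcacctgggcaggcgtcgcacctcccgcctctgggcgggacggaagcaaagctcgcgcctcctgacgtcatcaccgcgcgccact
POLE4: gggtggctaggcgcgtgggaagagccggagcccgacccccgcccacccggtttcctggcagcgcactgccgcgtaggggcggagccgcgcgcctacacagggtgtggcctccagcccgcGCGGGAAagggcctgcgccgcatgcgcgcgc

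Capitals therefore appear both in genes that fell (POLA1, POLA2, POLE and PCNA) and in POLE4, which rose, and FEN1 has none in this window. The windows of POLA2, FEN1 and POLE4 do not cover the sequence before the GENCODE starts of these genes. Tested genes with a promoter, counted per gene as the members are, held the other letters more often than all promoters did, apart from the CHR letters. The CCAAT box occurred in 53.6% of the 28 members, 43.2% of tested genes and 34.6% of all promoters. The hypoxia response core ACGTG occurred in 28.6% of members, 32.5% of tested genes and 21.4% of all promoters. The CHR letters TTTGAA or TTCGAA were in 2 members (7.14%), 15.8% of tested genes and 16.4% of all promoters. The NRF1 letters CGCATGCG were in 2 members (7.14%), 4.44% of tested genes and 2.02% of all promoters. Of the tested genes with each kind of letters, 36.9% fell for CCAAT, 30.5% for ACGTG, 39.9% for CHR and 36.3% for NRF1. A match of letters is a description of the sequence and not evidence of binding.

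All 4 subunits of the DNA polymerase alpha-primase complex fell. POLA1 (ENSG00000101868, GRCh38 chromosome X, 24693919 to 24996986), the catalytic subunit, was at 44.5, 48.0 and 48.5 CPM in normoxia replicates 1 to 3 and 13.1, 14.0 and 10.4 CPM in hypoxia replicates 1 to 3. Every hypoxia library was below every normoxia library, and the fall was 3.80-fold (log2 change -1.92 ± 0.14, SE; edgeR adjusted p = 9.42e-07). The primase subunit PRIM1, which makes the RNA primer, went from 17.4, 21.2 and 20.4 CPM to 7.49, 8.77 and 6.98 CPM, a fall of 2.55-fold. Its partner PRIM2, the regulatory subunit that carries an iron-sulfur cluster, fell least of the complex, from 42.6, 40.8 and 38.1 CPM to 21.1, 21.8 and 25.9 CPM (1.76-fold). POLA2, the regulatory B subunit, was weakly covered, with 87, 57 and 48 counts in normoxia and 9, 4 and 11 in hypoxia. Its fall of 5.02-fold is uncertain in size, since 35.1% of its exon length is shared with an annotated protein-coding gene on the same strand, AP000944.2.

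In DNA polymerase delta 3 subunits fell and the fourth, POLD4, rose. The catalytic subunit POLD1 was at 33.7, 28.3 and 35.0 CPM in normoxia and 19.7, 19.1 and 22.6 CPM in hypoxia, a fall of 1.58-fold (log2 change -0.66 ± 0.13; edgeR adjusted p = 0.00140). The scaffold subunit POLD2, the most abundant of the complex, went from 123, 110 and 118 to 76.3, 88.5 and 56.5 CPM, which was 1.59-fold lower. Neither fall passed a test against a 1.5-fold change (adjusted p = 0.252 and 0.244).

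POLD3, which also serves break-induced replication, fell 3.75-fold, from 25.6, 26.1 and 26.6 CPM to 7.49, 6.93 and 6.56 CPM (log2 change -1.90 ± 0.14; edgeR adjusted p = 9.54e-07). The smallest subunit POLD4 (ENSG00000175482, chromosome 11, 67350777 to 67356972) moved the other way. It was at 4.53, 3.86 and 4.09 CPM in normoxia and 8.65, 7.85 and 6.02 CPM in hypoxia, so that all hypoxia libraries lay above all normoxia libraries. Its log2 change of 0.84 ± 0.21 (edgeR adjusted p = 0.00588) became 0.52 when libraries were scaled by their totals alone, and the call was lost (adjusted p = 0.0591). Of its exon length, 21.3% is shared with another annotated gene on the same strand, AP003419.1, which had no counts.

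In DNA polymerase epsilon, the catalytic and second subunits fell, while the histone-fold pair split, with POLE3 lower and POLE4 higher. The catalytic subunit POLE went from 41.3, 39.6 and 40.3 CPM to 15.2, 15.1 and 20.0 CPM (2.39-fold lower), with hypoxia replicate 3 the highest of its group. POLE2, the second subunit, which links the polymerase to GINS, fell 5.98-fold, from 5.90, 5.76 and 5.55 CPM to 1.27, 0.714 and 0.903 CPM. The histone-fold subunits POLE3 and POLE4 form a dimer, and POLE3 is also part of the CHRAC chromatin remodeller.

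POLE3 was at 39.0, 40.5 and 38.5 CPM in normoxia and 24.0, 22.9 and 23.1 CPM in hypoxia, a fall of 1.68-fold with little spread in either group. POLE4 (ENSG00000115350, chromosome 2, 74958492 to 74970128) was at 36.5, 45.9 and 63.1 CPM in normoxia and 94.4, 77.9 and 64.0 CPM in hypoxia. Its groups came close to meeting, with 63.1 CPM in the highest normoxia and 64.0 CPM in the lowest hypoxia library. The log2 change was 0.70 ± 0.21 (edgeR adjusted p = 0.0169). The call was lost without normoxia replicate 1 (adjusted p = 0.0501) or 2 (0.0653), without hypoxia replicate 1 (0.0521) or 3 (0.0569), and with library totals alone (0.0727).

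Of the 5 clamp loader subunits, 4 fell and the large subunit did not change detectably. RFC1 (ENSG00000035928, chromosome 4, 39287456 to 39366375) is the subunit particular to the RFC complex. It was at 126, 145 and 136 CPM in normoxia and 117, 130 and 142 CPM in hypoxia, with overlapping groups. With library totals alone it was called lower, at a log2 change of -0.37 (edgeR adjusted p = 0.0128). The small subunits RFC2 to RFC5 are ATPases of the same family and are shared with other loaders.

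RFC3 fell 5.67-fold, from 32.2, 31.7 and 31.0 CPM to 3.80, 6.01 and 6.62 CPM (log2 change -2.50 ± 0.18; edgeR adjusted p = 1.15e-06). RFC4 was 2.33-fold lower, going from 36.5, 36.9 and 44.1 CPM to 18.2, 19.7 and 13.0 CPM. RFC2 and RFC5 were 1.60-fold and 1.45-fold lower, and all hypoxia libraries of both genes lay below the normoxia libraries. Neither passed the test against a 1.5-fold change (adjusted p = 0.226 and 0.599). Among the small subunits the fold values ran from 1.45 in RFC5 to 5.67 in RFC3.

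The clamp and the enzymes that process Okazaki fragments included the largest fall of the set. PCNA (ENSG00000132646, chromosome 20, 5114953 to 5126626) was at 66.2, 64.5 and 66.1 CPM in normoxia and 12.2, 11.8 and 13.9 CPM in hypoxia (log2 change -2.37 ± 0.11; edgeR adjusted p = 6.79e-08). FEN1 (ENSG00000168496, chromosome 11, 61792637 to 61797244), which removes the displaced flap, was at 35.4, 37.0 and 42.0 CPM and then 5.27, 4.28 and 3.91 CPM (log2 change -3.10 ± 0.16; edgeR adjusted p = 1.01e-07). Both genes had narrow groups far apart, and FEN1 stood at the 1.51 percentile of the changes of all tested genes.

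The ligase LIG1, which seals nicks between fragments, fell 2.91-fold, from 25.3, 26.5 and 27.8 CPM to 9.49, 10.2 and 7.83 CPM. The nuclease and helicase DNA2, which shortens long flaps, fell 2.19-fold, from 22.5, 21.9 and 21.4 CPM to 10.8, 9.48 and 9.81 CPM. Relative to PCNA within each library both were higher in hypoxia, as described with the ratios.

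The 3 subunits of RPA, the single-strand binding complex, all fell. RPA1, the largest subunit with most of the DNA-binding domains, went from 59.0, 63.7 and 69.9 CPM to 29.3, 34.8 and 24.3 CPM. RPA2, the subunit phosphorylated under replication stress, went from 25.7, 30.3 and 32.8 CPM to 12.2, 15.4 and 12.9 CPM. Both were 2.19-fold lower. RPA3 was 1.97-fold lower with the widest spread of the complex, at 30.6, 35.9 and 45.2 CPM in normoxia and 25.4, 19.4 and 12.5 CPM in hypoxia (edgeR adjusted p = 0.00745, or 0.0642 against a 1.5-fold change).

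All 4 GINS genes and WDHD1, which encodes the AND-1 protein that couples polymerase alpha to the helicase, fell. GINS1 was at 34.5, 32.2 and 32.5 CPM in normoxia and 5.69, 7.34 and 7.34 CPM in hypoxia, a fall of 4.84-fold (log2 change -2.27 ± 0.15; edgeR adjusted p = 4.42e-07). GINS3 and GINS4 fell 4.19-fold and 5.11-fold from lower levels, 9.52 ± 1.82 and 11.7 ± 0.332 CPM (SD, n = 3). GINS2 fell least, 2.53-fold, with 11.8, 11.2 and 15.9 CPM in normoxia and 4.43, 6.01 and 4.94 CPM in hypoxia. WDHD1 went from 42.6, 47.1 and 43.0 CPM to 11.3, 10.6 and 9.33 CPM, or 4.27-fold lower.

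All 3 histone deposition genes fell. CHAF1A, the large subunit of CAF-1 that binds PCNA, went from 28.6, 25.4 and 29.9 CPM to 6.22, 6.01 and 7.40 CPM (4.23-fold lower). CHAF1B, the middle subunit, was 3.98-fold lower and ASF1B, the histone H3-H4 chaperone that hands histones to CAF-1, 3.96-fold lower. In the alternative loader that serves sister chromatid cohesion, DSCC1 fell 6.28-fold, from 17.5, 18.3 and 17.6 CPM to 3.69, 2.14 and 2.71 CPM. Its large subunit CHTF18 fell 3.01-fold, from 16.2, 13.1 and 12.6 CPM to 4.32, 4.59 and 4.94 CPM.

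Ratios of subunits within each library do not depend on the scaling between libraries. Each gene was set against the catalytic, largest or first-numbered member of its group, or against PCNA for FEN1, LIG1 and DNA2. This gave 25 pairs. The pairs of FEN1, LIG1 and DNA2 with PCNA, WDHD1 with GINS1 and ASF1B with CHAF1A do not join subunits of the same complex. They are counted with the subunit pairs here. In 16 pairs the hypoxia ratios lay wholly outside the normoxia ratios, 8 higher and 8 lower. The share among other pairs of genes was not computed, and 67.9% of all tested genes, taken singly, had groups without overlap. The count therefore does not show that such shifts are particular to these genes. With 3 libraries a group, the two-sided exact permutation p cannot go below 0.10, and each of these 16 pairs had exact p = 0.10 (0.156 after adjustment over the pairs), so no ratio passed a threshold of 0.05.

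The widest shift among the lower ratios was in the clamp loader. The log2 ratio of RFC3 to RFC1 was -1.97, -2.19 and -2.13 in normoxia and -4.86, -4.39 and -4.40 in hypoxia, a 5.48-fold fall of the ratio. All 4 small subunits were lower against RFC1 without overlap. The ratio of POLE4 to POLE rose 3.97-fold, from -0.18, 0.21 and 0.64 on the log2 scale to 2.62, 2.35 and 1.67, and that of POLD4 to POLD1 rose 2.80-fold. POLD3 fell 2.33-fold against POLD1 and POLE2 2.17-fold against POLE. Against PCNA, FEN1 was 1.60-fold lower while LIG1 and DNA2 were 1.79-fold and 2.37-fold higher.

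In 9 pairs the ratios overlapped between the groups. The RPA2 to RPA1 ratio was -1.12 ± 0.07 in normoxia and -1.11 ± 0.18 in hypoxia on the log2 scale (SD, n = 3 each). The CHAF1B to CHAF1A ratio was -0.50 ± 0.23 and -0.41 ± 0.27, and that of GINS4 to GINS1 -1.50 ± 0.10 and -1.56 ± 0.30. POLD2 against POLD1 was 1.85 ± 0.11 and 1.82 ± 0.45. These differences were smaller than the spread between libraries, which does not show that the subunits changed equally.

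**Figure D2:**
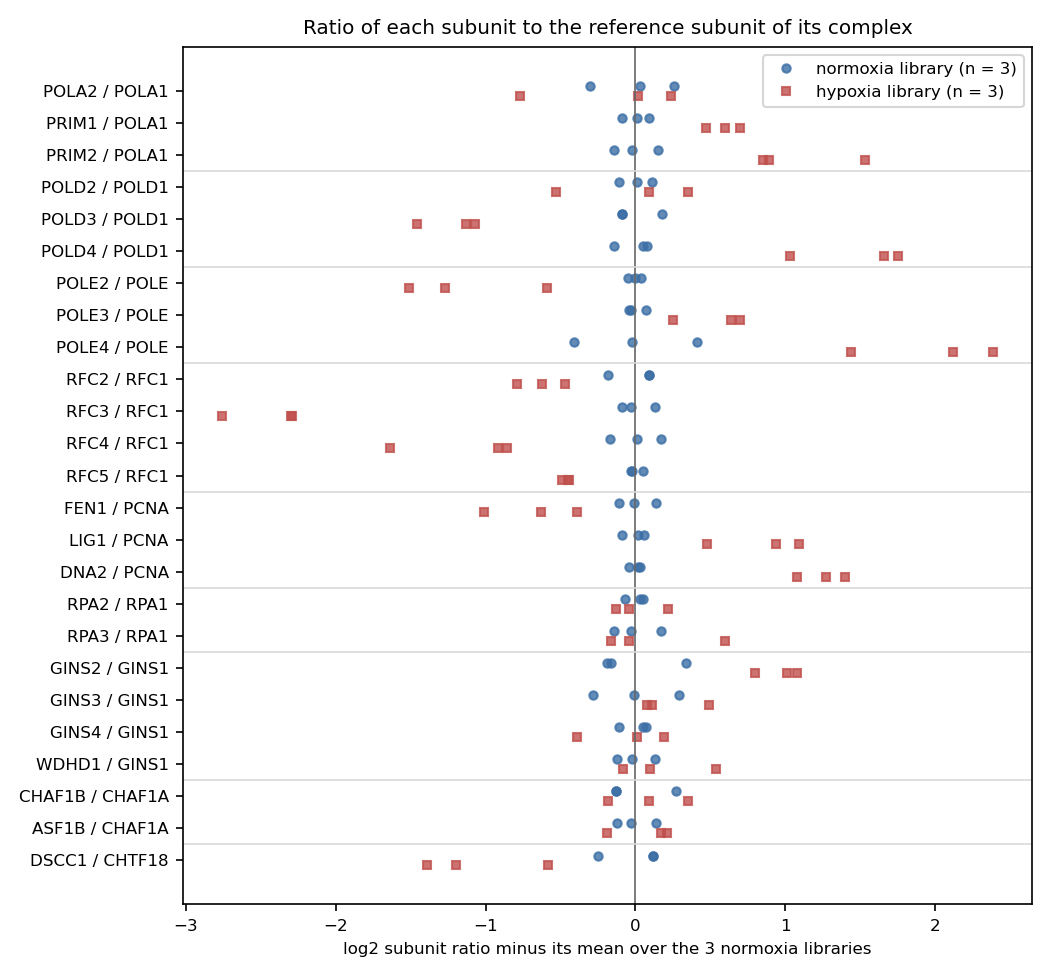
Log2 ratio of each gene to the reference gene of its group, minus the mean of the 3 normoxia libraries. Circles are normoxia and squares are hypoxia libraries. Ratios of RFC2 to RFC5, POLD3 and POLE2 shift left in hypoxia, those of POLE4, POLD4, PRIM2 and DNA2 shift right, and those of RPA and CAF-1 subunits overlap.

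Levels of different genes were compared as CPM per kilobase of the principal coding transcript. In normoxia, POLD2 was highest at 54.2 ± 2.96, then PCNA at 48.3 ± 0.692 and POLE4 at 38.9 ± 10.8, followed by RFC1 at 28.0 ± 1.92 and RFC4 at 27.0 ± 2.95 (SD, n = 3). RFC1 and RFC4 did not differ beyond their spread, and the spread of POLE4 overlapped those of PCNA, RFC1 and RFC4. In hypoxia, POLE4 was highest at 63.1 ± 12.2, then POLD2 at 34.2 ± 7.49 and RFC1 at 26.7 ± 2.67, while PCNA stood at 9.31 ± 0.812. The hypoxia spreads of POLD2 and RFC1 overlapped. POLA2 was lowest in both groups, at 0.904 ± 0.144 and 0.180 ± 0.0723, with the shared exons described above. Within RPA the normoxia levels per kilobase were 14.8 ± 1.27 for RPA1, 16.9 ± 2.04 for RPA2 and 18.4 ± 3.65 for RPA3, which overlapped within their spread. The GINS genes spanned 3.03 ± 0.0864 for GINS4 to 10.2 ± 0.385 for GINS1.

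**Figure D3:**
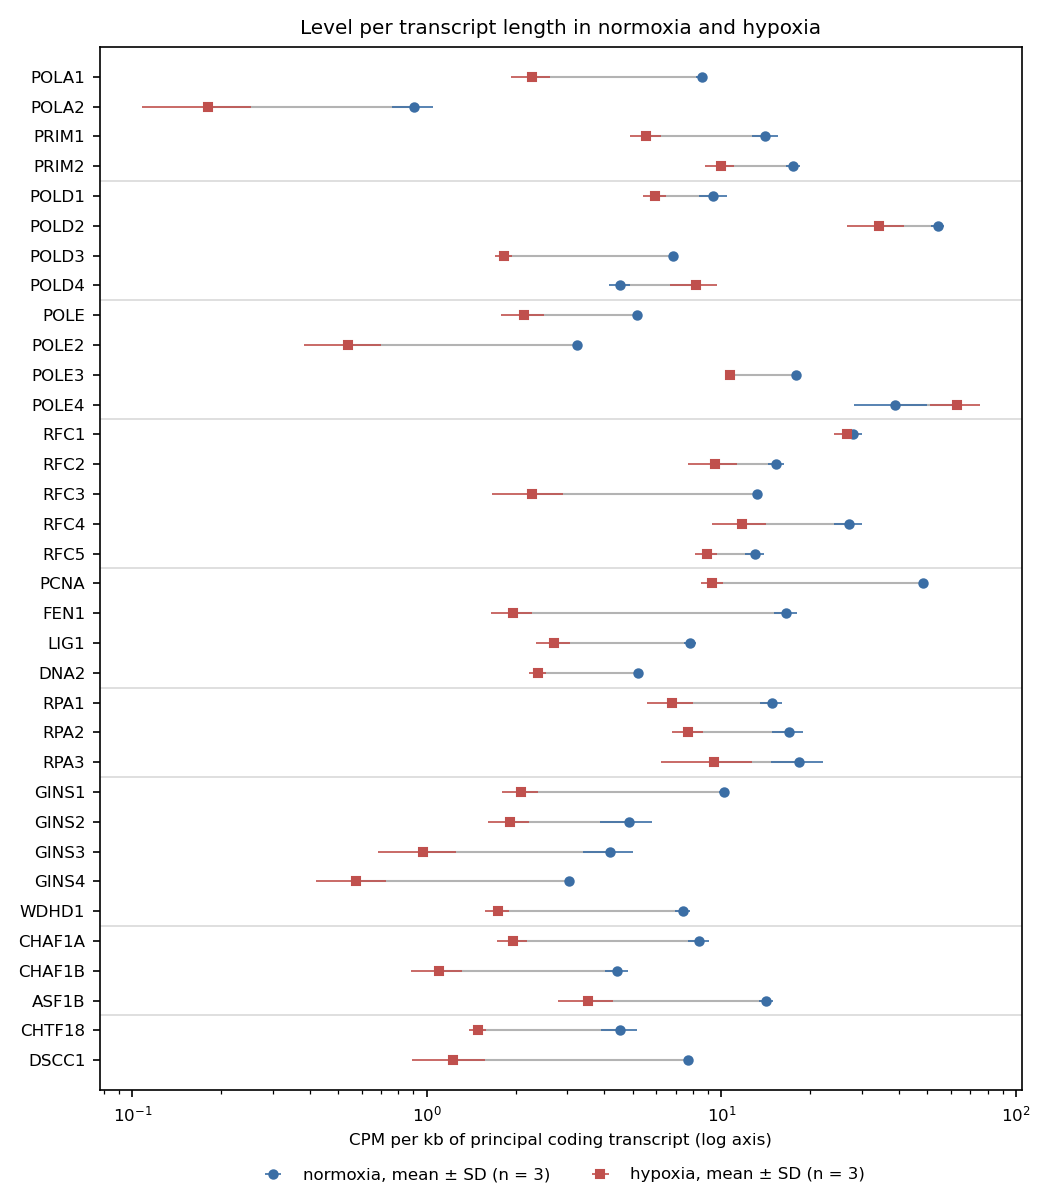
Mean CPM per kilobase of principal coding transcript (log axis) for each gene, with SD over 3 libraries, circles for normoxia and squares for hypoxia, joined by a grey line. PCNA moves from 48.3 to 9.31, RFC1 goes from 28.0 to 26.7, and POLE4 rises to 63.1.

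Other genes that act at or near the fork were taken from related lists, whose counts stand against 31.0% of all tested genes lower and 31.2% higher. All 8 MCM helicase genes with CDC45 and MCM10 fell, at a median log2 change of -2.27, led by MCM3 (8.97-fold lower) and MCM10 (8.44-fold). All 7 fork protection and checkpoint adaptor genes fell, with a median of -1.32, CLSPN 13.3-fold and TIMELESS 4.31-fold. PCLAF fell least, 1.39-fold (edgeR adjusted p = 0.0471), and its groups overlapped.

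The polymerases of repair and translesion synthesis, which copy damaged DNA or fill gaps, and of the mitochondrion were measured in 13 genes, of which 2 fell and 4 rose, with a median log2 change of 0.09 against 0.01 for all tested genes. The share that rose was near that of all tested genes. The primase-polymerase PRIMPOL was 2.17-fold and the end-joining polymerase POLQ 2.01-fold lower. POLL, a gap-filling polymerase of end joining, was 2.29-fold higher and MAD2L2, a subunit of polymerase zeta, 1.83-fold higher. With library totals alone 4 of the 13 were lower and 3 higher, at a median of -0.22. The difference between these lists and the fork genes was not tested.

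Among 7 tested genes for primer removal and other ligation, 4 fell and 2 rose. RNASEH1, which digests RNA in hybrids, fell 19.4-fold and the ligase LIG3 2.82-fold. The rises, in RNASEH2C (1.62-fold) and the repair scaffold XRCC1 (1.29-fold), did not pass when only library totals set the scale (edgeR adjusted p = 0.0828 and 0.618). Of 13 other clamp, loader and PCNA-modifying genes, 7 fell and 4 rose, from HLTF, a PCNA ubiquitin ligase, 2.97-fold lower to HUS1, a checkpoint clamp subunit, 1.64-fold higher. With library totals alone 1 of these 13 was called higher.

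Of 14 other histone chaperone genes, 7 fell and 3 rose. TONSL, which reads newly deposited histones, and HAT1, which acetylates them, were 3.30-fold and 3.29-fold lower. CABIN1 and HJURP, of the replication-independent H3.3 and CENP-A pathways, were 2.84-fold and 2.15-fold higher. Those pathways did not move as a whole. Of the other H3.3 genes in the list, DAXX rose 1.92-fold, and HIRA, ATRX and UBN1 were not called. HIRA was called lower with library totals alone, at a log2 change of -0.96 (edgeR adjusted p = 0.00716). The chaperone gene ASF1A fell 3.10-fold. Of the remodeller genes that partner POLE3, BAZ1A (2.34-fold) and SMARCA5 (1.73-fold) fell, and CHRAC1 rose 1.35-fold, which did not pass under scaling by totals (edgeR adjusted p = 0.330).

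Most markers of G2 and mitosis were lower too. Of 12, 10 fell, at a median log2 change of -0.65, with HMMR 3.33-fold and CDK1 2.52-fold lower. MKI67 (log2 change -0.13; edgeR adjusted p = 0.461) and PLK1 (-0.28; 0.0706) were not called, and their groups overlapped. All 12 markers were called lower with library totals alone. Their summed level went from between 2466 and 2521 CPM to between 1403 and 2022 CPM, and their part in the fork gene values was not tested. Of 19 E2F, pocket protein and MuvB genes, 11 fell and 4 rose, with a median of -0.56. The counts were 13 lower and 2 higher with library totals alone. E2F1, an activator of S-phase genes, was 4.09-fold lower. E2F2 had 118, 53 and 68 counts in normoxia and 1, 3 and 3 in hypoxia, at or below 3 counts. The MuvB core genes of this list split, with LIN37 and LIN54 3.49-fold and 2.13-fold higher. LIN52 and LIN9, named after their values were seen, were 2.53-fold and 1.72-fold lower. RBBP4, also a MuvB subunit but counted with the histone chaperones, was 1.70-fold lower.

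**Figure D4:**
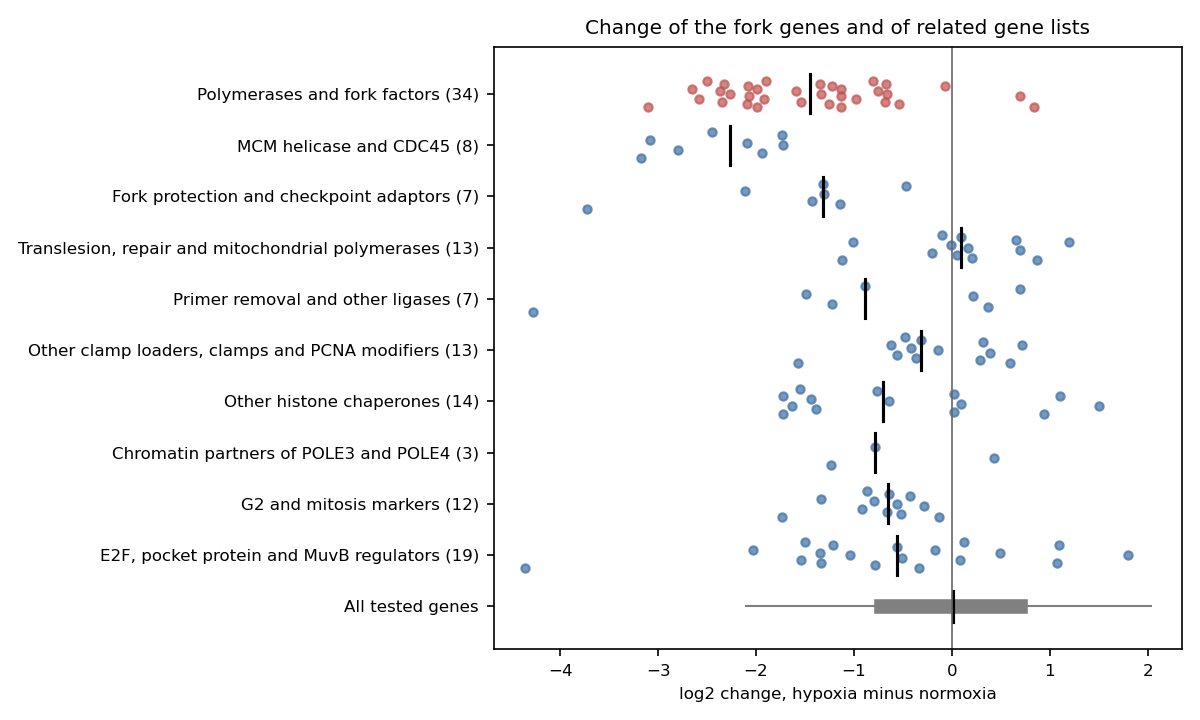
Log2 change of each tested gene (points) in the fork set (red) and related lists (blue), with medians as black bars and, for all tested genes, the 25th to 75th percentile as a thick bar and the 5th to 95th as a line. The fork genes centre at -1.45 and the MCM list at -2.27, while repair and translesion polymerases centre at 0.09.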

How the data were processed

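RNA-seq libraries of IOMM-Lee cells, 3 in normoxia and 3 in hypoxia, were grouped by their titles. The authors deposited raw read counts per Ensembl gene, made on the build GRCh38.p13, per the submitters' processing notes. The tools listed there are featureCounts 2.0.1, HISAT2 2.1.0, fastp 0.20.1 and DESeq2 1.37.5. Neither strand setting nor annotation release is given in the sources used here, so reads of overlapping antisense genes cannot be told apart. Depth limits precision: 3 counts correspond to 0.133 to 0.316 CPM. A line without a gene name (0.00243% of counts) was left out. A second deposited table of normalized values was not used here.

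Counts were tested with edgeR 4.0.16 in R 4.3.3 (filterByExpr on the group with minimum count 10 and total 15, TMM, robust quasi-likelihood F test, Benjamini-Hochberg over 16411 genes, threshold 0.05). The SE is the log2 change divided by the square root of F. CPM uses TMM-scaled totals. Subunit ratios are log2 of counts plus 2. Coordinates, exon overlaps and the principal coding transcript (longest APPRIS principal) come from GENCODE 29 on GRCh38, and promoters from RefSeq on GRCh38.p14. Protein sequences were not used here. Scripts were tested on simulated counts. All 34 members are described. Of each related list other than the cell type markers, the rule was at most 2 called falls and 2 called rises with mean CPM of at least 1. Outside that rule, LIN52, LIN9, RBBP4, DAXX, ASF1A, HIRA, ATRX, UBN1, PCLAF, MKI67 and PLK1 were named after their values were seen. The members and lists were chosen with earlier results of these data known. Libraries of a group were distinct, with a chi-square per gene of 5.83 to 37.0 between them. Alternatives were DESeq2 1.42.0, limma-voom (limma 3.58.1), other scalings, filters and thresholds, a replicate block and leaving out each library.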

Additional observations from a re-analysis of the deposited data

How the results depend on the processing

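Of the 34 fork genes, 25 kept their direction and call in all 17 alternative settings run, and none reversed. The count that fell stayed at 31 without each library in turn, and was 32 with library totals alone and 25 against a 1.5-fold change, a stricter test. The 6 genes POLD1, POLD2, POLE3, RFC2, RFC5 and RPA3 lost their call in that test only. The count that rose was 2, and was 1 to 2 without each library in turn, 1 at adjusted p under 0.01 and 0 against a 1.5-fold change (edgeR glmTreat, 1 at unadjusted p under 0.05). It was 0 with library totals alone (2 at unadjusted p under 0.05) and 2 with DESeq2 and limma-voom. The median log2 change was -1.75 with library totals alone, where that of all tested genes was -0.30, and -1.57 with no filter on low counts, where it was -0.16. Genes of the related lists that fell numbered 58, and 56 to 64 without each library. Pairs of subunits without overlap numbered 16, and 16 to 17 without each library. The shorter E2F letters were in 14 promoters and the longer in 5.

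No pairing by replicate number was seen in the values. Deviations of same-numbered libraries from their group means correlated at -0.106, 0.086 and -0.038 over 16411 genes. Normoxia replicate 3 correlated best with hypoxia replicate 1, at 0.182. With means of 3 libraries, such correlations cannot exclude that same-numbered cultures were handled together. With a replicate block 31 genes fell and 1 rose, since POLE4 lost its call (edgeR adjusted p = 0.0573), and 16 pairs of subunits shifted the same way in all 3 same-numbered comparisons. Depth limits POLA2, with 4 to 11 counts in the hypoxia libraries.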
